A study of Drosophila melanogaster with 3 samples.

Results

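The genes for transfer RNAs (tRNAs) of Drosophila melanogaster were examined as a class for the binding of Blimp-1. All 290 genes annotated as tRNA on the nuclear chromosomes were included, and the 22 mitochondrial ones were left out. The genes were taken from the Ensembl release 115 annotation (FlyBase 6.54) of genome release 6, known as dm6. A tRNA gene was called bound when the summit of a reproducible binding site lay within 500 bp of it, and 21 of the 290 genes met this rule.

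Binding was measured by chromatin immunoprecipitation and sequencing (ChIP-seq) in whole prepupae, males and females together, of unknown age. The animals came from a transgenic line with a stable Blimp-1 transgene, tagged with green fluorescent protein (GFP) at the C terminus, and the sheared chromatin was pulled down through the GFP. There were 3 biological replicates of this 1 group and no second group, so differences between conditions could not be measured, and a control experiment that the labels name as possible was not analysed here. All cell types of the animal were pooled, so a weak site cannot be told apart from a site used in few cells.

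tRNA genes are transcribed by RNA polymerase III. Their promoter lies inside the gene, as the A and B boxes, which the factor TFIIIC recognises before TFIIIB is placed just upstream of the start. Blimp-1 is a zinc finger protein that represses transcription, and its own gene is switched on by the steroid hormone ecdysone at the start of metamorphosis. Its recognition sequence, known from the mammalian protein as the PRDI-BF1 consensus, has the core GTGAAAG.

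The sequences around 5 of the summits are shown because they include the 3 strongest sites, a pair with the recognition core GTGAAAG and, at Pro-AGG-1-7, one with no GAAAG in the stretch shown. Each is the plus strand of dm6 with 50 bases on either side of the summit, with every GAAAG, or CTTTC where it lies on the other strand, in capitals. They lie at chr3R:8669321-8669421, chrX:3427687-3427787, chr2L:8290961-8291061, chrX:14103462-14103562 and chr3L:13212793-13212893.
summit near tRNA:Tyr-GTA-1-8: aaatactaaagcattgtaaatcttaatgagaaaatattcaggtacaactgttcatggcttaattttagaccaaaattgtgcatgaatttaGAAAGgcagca
summit near tRNA:Gln-TTG-2-1: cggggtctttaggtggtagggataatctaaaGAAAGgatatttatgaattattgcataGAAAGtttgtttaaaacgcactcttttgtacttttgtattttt
summit near tRNA:Lys-TTT-1-1: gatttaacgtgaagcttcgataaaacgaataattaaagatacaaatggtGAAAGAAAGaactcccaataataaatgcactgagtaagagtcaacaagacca
summit near tRNA:Ser-CGA-1-3 and tRNA:Arg-TCG-1-1: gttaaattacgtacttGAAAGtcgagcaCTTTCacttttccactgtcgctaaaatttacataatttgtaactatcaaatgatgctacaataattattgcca
summit near tRNA:Pro-AGG-1-7: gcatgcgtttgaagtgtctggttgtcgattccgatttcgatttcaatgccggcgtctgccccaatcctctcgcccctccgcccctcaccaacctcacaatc

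The 4 tRNA genes below are shown because they are pairs of bound genes of nearly the same sequence. Each is printed on its own strand from its first base, with the B box core GTTCNANNC in capitals. They lie at chr2L:8290727-8290799 (plus strand), chr3R:6819894-6819966 (plus strand), chrX:14103719-14103791 (minus strand) and chr3R:8861880-8861952 (plus strand).
tRNA:Lys-TTT-1-1: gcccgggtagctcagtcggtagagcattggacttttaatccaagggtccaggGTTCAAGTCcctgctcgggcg
tRNA:Lys-TTT-2-1: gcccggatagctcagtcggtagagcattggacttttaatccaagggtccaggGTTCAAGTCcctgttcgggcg
tRNA:Arg-TCG-1-1: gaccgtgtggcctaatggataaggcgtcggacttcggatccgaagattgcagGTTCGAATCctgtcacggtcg
tRNA:Arg-TCG-2-3: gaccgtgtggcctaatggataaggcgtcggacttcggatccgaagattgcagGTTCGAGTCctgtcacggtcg

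Between both lysine genes the sequence changed by G7A and C66T, and between both arginine genes by A59G, counted from 1 at the 5′ end of the gene. The B box core, searched on the sense strand, was present in 271 of the 290 tRNA genes (93.4%) and in 21 of the 21 bound ones.

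Blimp-1-GFP sites lay near few tRNA genes, yet near a larger share of them than of positions along the arms. Of the 290 genes, 21 had a reproducible summit within 500 bp (7.24%, 95% Wilson interval 4.79 to 10.8, which covers counting error only). A feature of the median tRNA gene length, 73 bp, placed at every position of the major arms lay that near to a summit at 3.91% of positions, so the tRNA share was 1.85 times this background. In the strong peaks of replicate 3, the 4990 strongest of its own list, the tRNA share was below that of positions. The count was 7 of 290 when only sites overlapped by a strong peak in both replicates 2 and 3 were kept. It was 7 for replicates 1 and 3 and 14 for replicates 1 and 2. The same filters took the share of protein-coding genes near a site, 15.3% with all sites, to 8.3%, 8.8% and 11.5%, in that order. Promoters of protein-coding genes were near a site more often: 15.3% of the 13945 protein-coding genes had a summit within 500 bp of any of their transcription start sites (TSSs), and 10.6% of the 10246 genes with a single TSS did. The 21 genes shared 17 sites, so they are not independent of each other.

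Among the other RNA genes, noncoding RNA genes were bound at their 5′ end at 7.51% (245 of 3261), small nucleolar RNA genes at 5.58% (15 of 269) and small nuclear RNA genes at 6.25% (2 of 32). The tRNA share lay inside the intervals of all of these classes, which ran from 1.73% to 20.2% for the small nuclear RNA genes, from 3.41% to 8.99% for the small nucleolar RNA genes and from 6.66% to 8.47% for noncoding RNA genes. The 96 genes for 5S ribosomal RNA, also transcribed by RNA polymerase III, had 0 within the window, with an upper limit of 3.85%. They are repeats, and the handling of reads that map to several places was not given in the sources used here.

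**Figure D1:**
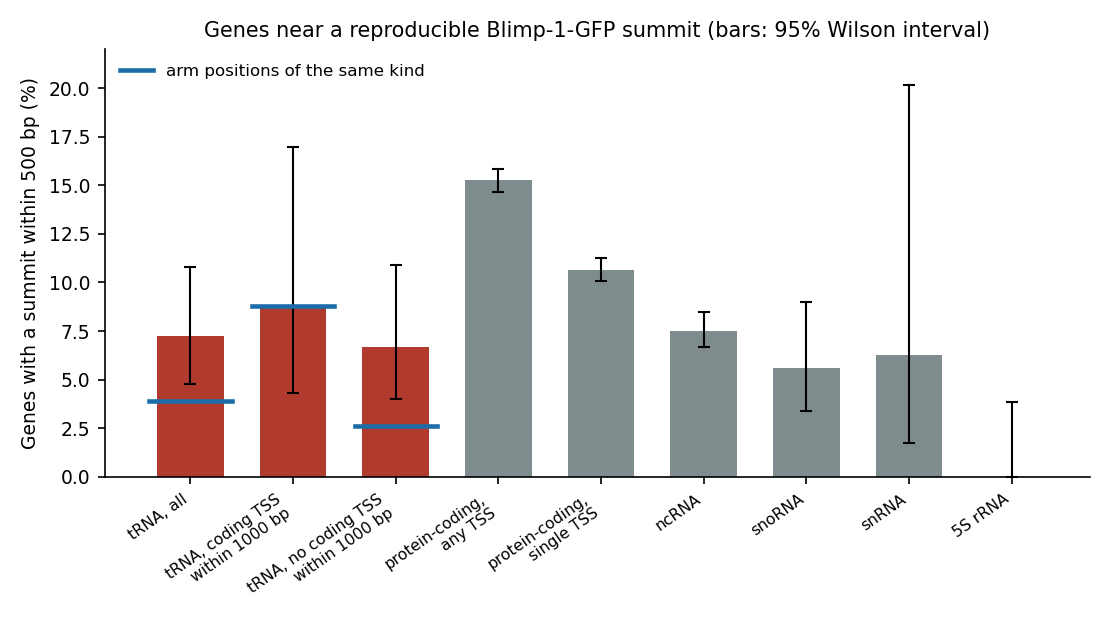
Share of genes (%) with a reproducible Blimp-1-GFP summit within 500 bp, by gene class. Error bars are 95% Wilson intervals over genes, and blue lines give the share of positions of the chromosome arms of the same kind, 3.91% for all positions, 8.77% near a coding TSS and 2.63% away from one.

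Among reproducible sites, the tRNA share lay above its background away from protein-coding promoters. In the strong peaks that share was above its background in replicates 1 and 2 and close to it in replicate 3. Of the 210 tRNA genes with no protein-coding TSS within 1000 bp, 14 were bound (6.67%, Wilson interval 4.01 to 10.9), at 11 sites, against 2.63% of arm positions that also lack such a TSS. Of the 80 tRNA genes with a protein-coding TSS within 1000 bp, 7 were bound (8.75%, interval 4.30 to 17.0), at 6 sites, against 8.77% of the matching positions. In the strong peaks of each replicate, taken in the same way, tRNA genes near a coding TSS reached 11.2%, 13.8% and 2.5% in replicates 1, 2 and 3, against 8.70%, 8.11% and 6.79% of matching positions. Those away from one reached 4.29%, 6.19% and 2.86%, against 2.30%, 2.30% and 2.75%. Both groups were thus above their background in replicates 1 and 2, and in replicate 3 the near group was below it and the away group close to it. The difference between both groups of tRNA genes was 2.08 percentage points in the reproducible sites. In the replicates it was 4.72 ± 4.41 points (SD, n = 3; exact two-sided sign-flip permutation test, p = 0.5, where 0.25 is the smallest p that 3 replicates allow) and it was below 0 in 1 replicate. With a window of 1000 bp, or with nearness set at 2000 bp, the sign of this difference turned.

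Of the 21 bound genes, 19 were nearer to the summit than any protein-coding TSS. The exceptions were a histidine and a phenylalanine tRNA gene. The summit near tRNA:His-GTG-1-3 lay 178 bp from the tRNA gene and 72 bp from the TSS of CG8490. The summit near tRNA:Phe-GAA-1-2 lay 279 bp from the tRNA gene and 21 bp from the TSS of RpL17, which encodes a protein of the large ribosomal subunit.

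Summits stood beside tRNA genes and not in them. Distances from the gene to the summit ran from 16 to 460 bp with a median of 212 bp, and 0 of the 17 summits lay inside a tRNA gene. The tRNA genes cover 22.0 kb in all, which at the arm-wide density of 37.3 summits per Mb would hold 0.82 summits, so a count of 0 there is not distinguishable from the background. For 15 of the 21 genes the summit was upstream of the gene and for 6 it was downstream. Over all 290 genes the median distance to the nearest summit was 7610 bp.

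**Figure D2:**
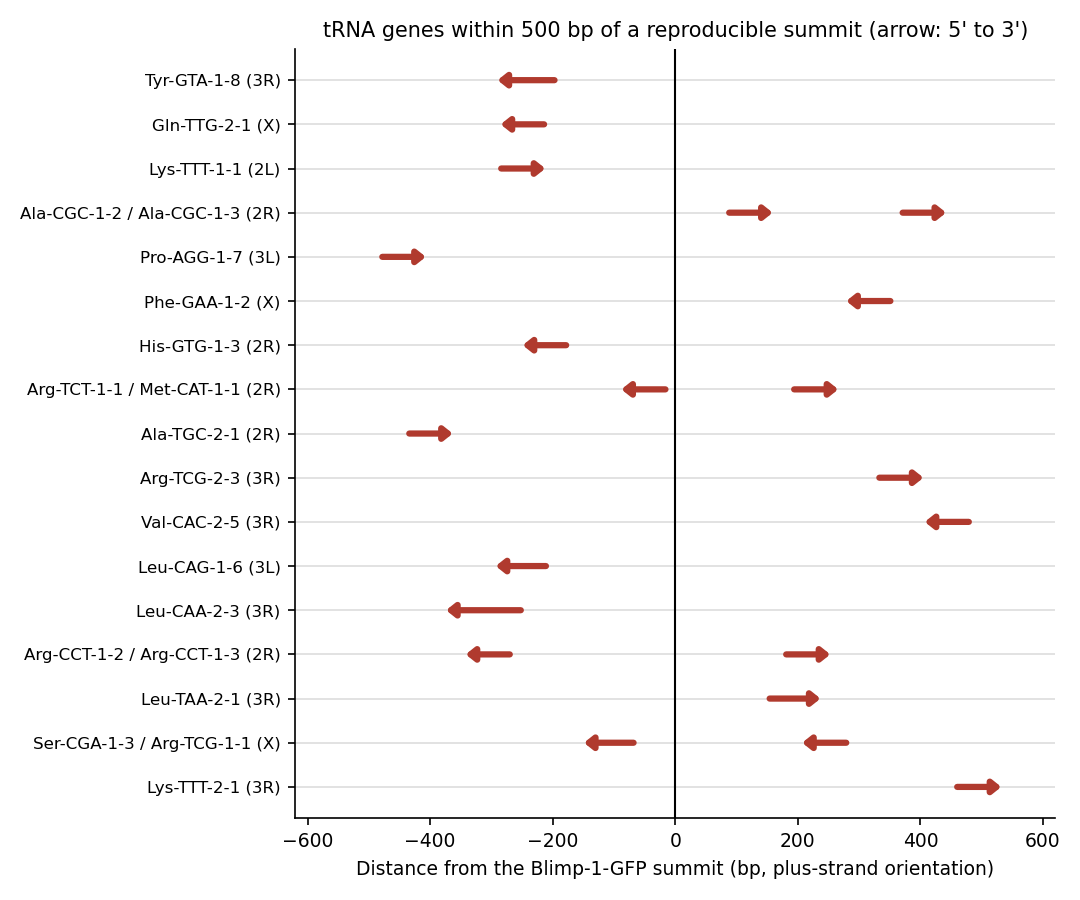
The 21 bound tRNA genes (red arrows, 5′ to 3′, with chromosome arm in brackets) drawn to scale around the summit of their site, which is at 0 bp. The 17 sites are ordered by mean relative signal from the top, and the pairs of genes that share a site are on 1 line.

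Among reproducible sites, the density of summits was highest between 100 and 250 bp from the nearest tRNA gene. It was 53.6 per Mb from 1 to 100 bp (3 summits), 109 per Mb between 100 and 250 bp (7 summits) and 77.0 per Mb between 250 and 500 bp (7 summits). Beyond that it stayed between 56.1 and 65.4 per Mb out to 5000 bp, and it was 37.0 per Mb farther away. The sequence up to 5000 bp from tRNA genes was thus richer in summits than the rest of the arms, and the highest band lay within it. On the upstream side the density was 107 per Mb from 1 to 100 bp and 185 per Mb between 100 and 250 bp (3 and 6 summits), and on the downstream side it was 0 and 31.3 per Mb (0 and 1 summit). Between 250 and 500 bp the order turned, with 66.5 per Mb upstream and 87.2 per Mb downstream (3 and 4 summits). In the strong peaks of replicates 1 and 2 the band from 100 to 250 bp was also the highest, at 124 and 109 per Mb. In replicate 3 it had 46.6 per Mb (3 summits), below the 85.1 per Mb between 500 and 1000 bp. On the upstream side replicate 3 had 61.65 and 97.45 per Mb in these bands. The counts are small, and the asymmetry was not tested.

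**Figure D3:**
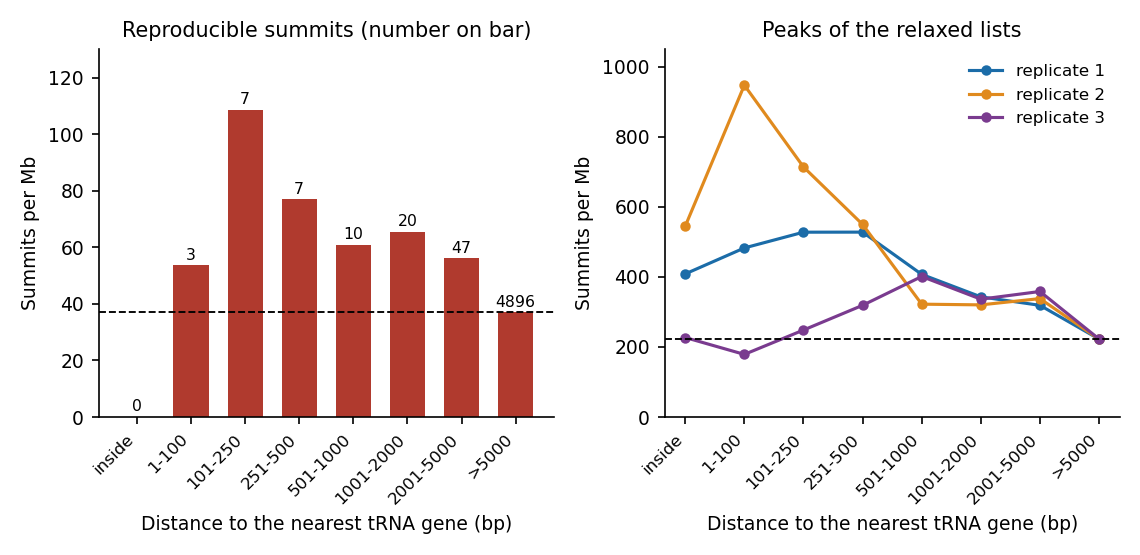
Summits per Mb by distance to the nearest tRNA gene (bp), for reproducible summits (left, with their number on each bar) and for all peaks of the relaxed list of each replicate (right). Dashed lines are the mean of the arms, 37.3 and 224 per Mb, and replicates 1 and 2 rise near tRNA genes whereas replicate 3 is near the dashed line inside them and up to 250 bp away.

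Most sites at tRNA genes were weaker than the usual site. The signal of a site is given as relative signal, its value in a replicate over that replicate's median of all 4990 reproducible sites. The median of the 17 site means was 0.776, against 0.983 over all sites, and 12 of the 17 lay below the latter. By deposited signal, 2 of the 17 were in the highest quartile of all sites and 5 in the lowest. The tRNA sites had a median of 0.782 in replicate 1, of 0.975 in replicate 2 and of 0.461 in replicate 3 (mean 0.739 ± 0.26, SD, n = 3). Replicate 3 thus gave the lowest median and replicate 2 one close to the median site.

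Replicate 3 stood apart from the others in the series as a whole, since 589 of the 4990 sites had no peak in it, against 2 in replicate 1 and 35 in replicate 2. The share without a peak in it was the same at tRNA genes (2 of 17, 11.8%) and over all sites (11.8%). Where a peak was present, its relative signal at tRNA genes was often the lowest. Among the 15 tRNA sites with a peak in all replicates, replicate 3 was the lowest at 13 (86.7%), against 47.0% of all such sites, and replicate 2 was the highest at 12 (80.0%), against 36.6% of all such sites. The part of library quality in this was not tested, and the depth of the libraries is unknown because the deposited lists hold no read counts.

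The strongest site lay at a tyrosine tRNA gene. The summit was 197 bp upstream of tRNA:Tyr-GTA-1-8 (chr3R:8669081-8669174, minus strand), in an intron of CG8036 and p, and 247 bp from the TSS of CG8036. Its relative signal was 2.53, 2.58 and 2.14 in replicates 1, 2 and 3, and its deposited signal of 953 ranked 616 of 4990. All 3 replicates lay above 2 times the median site, so the site was strong in each of them. The next tyrosine gene of the same cluster, tRNA:Tyr-GTA-1-7, was 666 bp from the same summit and so outside the window.

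A glutamine and a lysine tRNA gene followed. The summit near tRNA:Gln-TTG-2-1 (chrX:3427452-3427523, minus strand), 214 bp upstream in an intron of CG12535 and 8070 bp from the nearest coding TSS, had relative signals of 1.86, 2.08 and 1.78. The summit near tRNA:Lys-TTT-1-1 was 212 bp downstream of the gene in an intron of Btk, which encodes a Tec family tyrosine kinase, and 6113 bp from a coding TSS. Its values were 1.08, 1.16 and 1.61, with replicate 3 the highest, the single such case among the tRNA sites. Both genes stand alone, with no other tRNA gene within 5000 bp and no second gene of identical sequence.

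At 3 further sites the values were close to the median site. An alanine pair, tRNA:Ala-CGC-1-2 and tRNA:Ala-CGC-1-3, lay 88 and 371 bp from a summit in an intron of gol, which encodes a RING finger protein, on 2R, with values of 1.04, 1.33 and 1.01. The third gene of this anticodon, tRNA:Ala-CGC-1-1, was 601 bp from the same summit, so all 3 tRNA genes for this anticodon lay around 1 site. The site 407 bp downstream of tRNA:Pro-AGG-1-7 (chr3L:13212365-13212436, plus strand) had 1.13, 1.10 and 1.09, the narrowest spread of the set (SD 0.019, n = 3). The RpL17 promoter site near tRNA:Phe-GAA-1-2 had 1.03, 1.19 and 0.61, with replicate 3 apart from the others.

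The other 11 sites had means from 0.468 to 0.913. At 2 of them replicate 3 had no peak at all. These were the site beside tRNA:His-GTG-1-3, with 0.83 and 1.00 in replicates 1 and 2, and that between the arginine gene tRNA:Arg-TCT-1-1 and the methionine gene tRNA:Met-CAT-1-1, with 0.75 and 0.88. The latter summit lay 16 bp from the arginine gene, the shortest distance of all, and upstream of both genes, which point away from each other.

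The same divergent layout held at tRNA:Arg-CCT-1-2 and tRNA:Arg-CCT-1-3, where 1 summit lay upstream of both genes, at 270 and 181 bp, with values of 0.47, 0.78 and 0.35. At tRNA:Ser-CGA-1-3 and tRNA:Arg-TCG-1-1, which point the same way, the summit lay between the genes at 68 and 207 bp, with values of 0.45, 0.66 and 0.41. At tRNA:Leu-TAA-2-1, 154 bp from its summit, the values were 0.26, 0.87 and 0.46, the lowest single value of replicate 1. These weak sites passed the reproducibility threshold of the authors, yet all 3 were among the strongest peaks of 1 replicate only.

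In an intron of pyd, which encodes a junction scaffold protein, the site near tRNA:Arg-TCG-2-3 had 0.75, 0.87 and 0.46. Sites in introns of Naam, which encodes a nicotinamidase, near tRNA:Val-CAC-2-5, and of Sarm, near tRNA:Leu-CAG-1-6, had 0.78, 0.84 and 0.45, and 0.75, 0.98 and 0.33. The site near tRNA:Ala-TGC-2-1 had 0.99, 1.02 and 0.32, and the site near tRNA:Leu-CAA-2-3 had 0.72, 0.47 and 0.42. In all 5 of these sites replicate 3 was the lowest. The weakest site, 460 bp upstream of tRNA:Lys-TTT-2-1, had 0.44, 0.64 and 0.32.

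**Figure D4:**
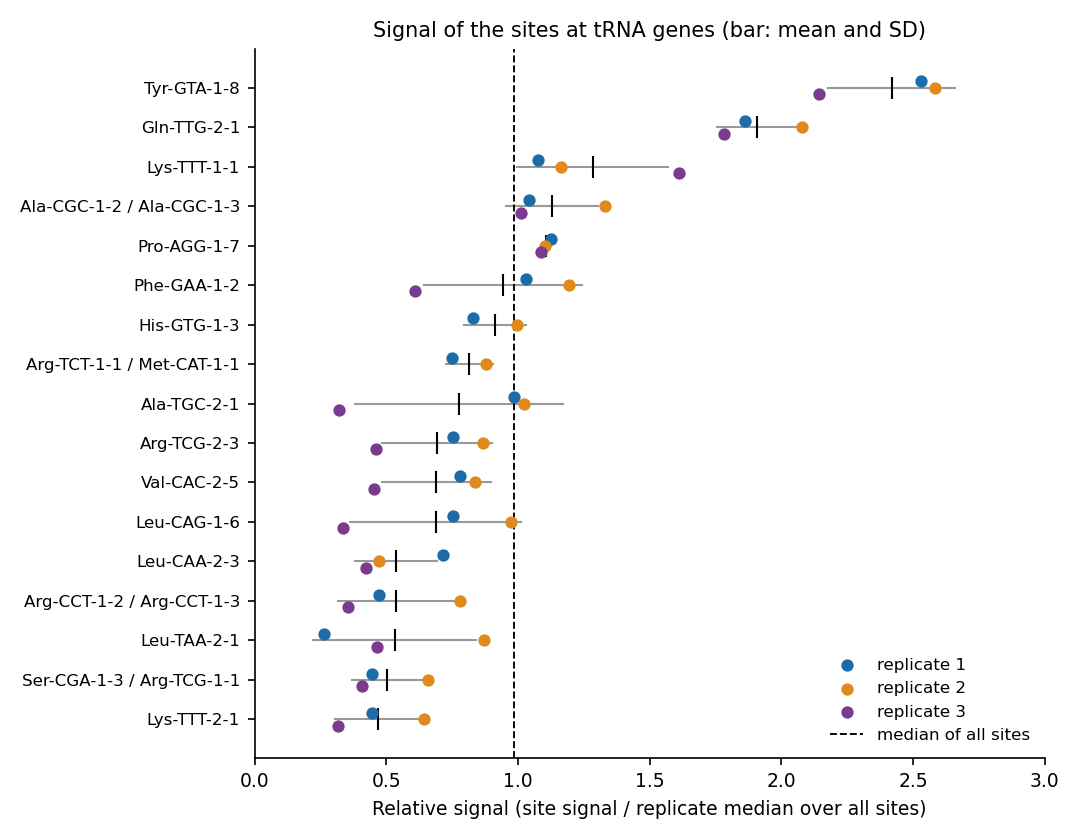
Relative signal (x axis, the signal of a site over the replicate's median of all sites) of the 17 sites at tRNA genes in each replicate, with the mean and SD as a tick and a grey bar. The dashed line is the median of all sites, 0.983. Only the Tyr-GTA-1-8 and Gln-TTG-2-1 sites lie above 1.7 in all 3 replicates.

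Support was split evenly. A replicate was taken to support a site when one of its 4990 strongest peaks, as many as there were reproducible sites, overlapped it. All 3 replicates supported 6 of the 17 sites (35.3%), against 56.9% of all sites, exactly 2 supported 6 and exactly 1 supported 5. The 6 were the sites of the tyrosine, glutamine, lysine (Lys-TTT-1-1), alanine (Ala-CGC), proline and phenylalanine genes. When sites supported by all 3 replicates alone were counted, 7 tRNA genes were bound.

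The window had no sharp edge in the data. The farthest gene inside it was tRNA:Lys-TTT-2-1 at 460 bp. Just outside were tRNA:Ser-GCT-2-3 at 528 bp, tRNA:Ile-TAT-1-1 at 539 bp, tRNA:Arg-ACG-1-1 at 546 bp, tRNA:Leu-CAA-2-2 at 555 bp and tRNA:Leu-CAG-1-5 at 562 bp. In all, 17 genes had their nearest summit between 500 and 1000 bp. Of these, tRNA:Arg-ACG-1-1 and tRNA:Lys-CTT-1-1 (753 bp) lie in an intron of EcR, which encodes the ecdysone receptor, and share a summit with relative signals of 0.86, 0.88 and 0.45.

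The strongest sites in this outer zone, apart from the tyrosine site, were those of tRNA:Val-TAC-1-1 and tRNA:Leu-CAA-2-2. The summit 865 bp from the valine gene lay 132 bp from the TSS of lama and had 1.5, 1.62 and 2.02. The summit 555 bp from the leucine gene was 15138 bp from any coding TSS and had 1.45, 1.51 and 1.71. In both, replicate 3 was the highest, unlike most sites inside the window. The remaining genes of the zone were tRNA:Thr-AGT-1-1, tRNA:His-GTG-1-2, tRNA:Glu-TTC-1-2, tRNA:Ala-TGC-1-1, tRNA:Glu-CTC-3-1, tRNA:Ala-AGC-2-1, tRNA:iMet-CAT-1-4 and tRNA:Ser-GCT-2-4, together with Tyr-GTA-1-7 and Ala-CGC-1-1, named above, and their site means ran from 0.594 to 2.42.

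Bound genes were spread over the amino acids. Of 22 classes, counting initiator methionine and selenocysteine apart, 12 had a bound gene, and of 45 combinations of amino acid and anticodon 17 did. Arginine had the highest number, 5 of 26, at 4 sites, followed by leucine with 3 of 22 and alanine with 3 of 17. Lysine had 2 of 19. Serine (20 genes), proline (17), valine (15), glutamine (12), tyrosine (10), phenylalanine (8), methionine (6) and histidine (5) had 1 each.

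The classes with 0 bound genes were glycine (20 genes), glutamate (19), threonine (17), aspartate (14), isoleucine (11), asparagine (10), tryptophan (8), cysteine (7), initiator methionine (6) and selenocysteine (1). At the overall share of 7.24% none of these classes, the largest with 20 genes, holds enough genes for a 0 to stand apart. Among the arms, 2R held 8 bound of 98 tRNA genes, 3R 6 of 79, X 4 of 24, 3L 2 of 48 and 2L 1 of 41. By place in the annotation, 13 of 156 intergenic genes and 8 of 127 intronic genes were bound, and 0 of the 7 in untranslated regions or coding sequence.

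With a site at 1 of 10 large tRNA gene clusters, whether these differ from other clusters cannot be told. With neighbouring tRNA genes joined when at most 5000 bp apart, the 290 genes formed 144 clusters, 76 of them single genes. Single genes were bound in 6 of 76 cases and genes in clusters of 2 to 4 in 14 of 142. Of the 10 clusters of 5 or more genes, 1 had a site (10%), against 17 of all 144 (11.8%) and 10 of the 58 clusters of 2 to 4 genes (17.2%). The site was near 1 of the 72 genes of these large clusters (1.39%), tRNA:Leu-CAG-1-6. The 11-gene cluster at chr3R:17617761-17631750, with genes for alanine, proline, threonine and valine, had 0, and so did an 11-gene cluster on 2R with arginine, asparagine, isoleucine and lysine genes. Genes of a cluster share their surroundings, and the 10 large clusters, not their 72 genes, are the units here. Clusters also differ in the length they span, so the shares of clusters with a site are not like for like.

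Most tRNA genes have exact copies elsewhere, and most copies of bound genes were not bound, like 269 of all 290 tRNA genes. The families named below were picked for holding a bound gene. The 290 genes have 95 distinct sequences, and 238 of them have at least 1 identical copy. Of the 238, 13 were bound (5.46%), and of the 52 genes of unique sequence, 8 were (15.4%). The phenylalanine sequence of tRNA:Phe-GAA-1-2 and the leucine sequence of tRNA:Leu-CAG-1-6 each occur in 8 genes, of which 1 was bound. For proline (AGG) it was 1 of 7, for Val-CAC-2 1 of 6 and for Lys-TTT-2 1 of 5. More than 1 copy was bound in the Arg-CCT-1 and Ala-CGC-1 families, with 2 of 3 genes each, and in both the pair shares 1 site. Reads within identical genes cannot be placed by sequence, so the lower share of copied genes cannot be told apart from an effect of read placement, whereas reads from the flanks, where the summits lay, can differ.

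In weaker peaks, tRNA genes were far more frequent, in replicates 1 and 2. Each replicate's deposited relaxed list holds 30000 peaks, most of them below the reproducibility threshold. A peak of this list lay within 500 bp of 127 tRNA genes in replicate 1 (43.8%), 155 in replicate 2 (53.4%) and 66 in replicate 3 (22.8%). The same held for 19.2%, 17.7% and 20.2% of arm positions. In replicates 1 and 2 the tRNA share was over 2 times the background, and in replicate 3 it lay near it. The mean difference was 21.0 ± 16.9 points (SD, n = 3; above 0 in 3 of 3 replicates; exact two-sided sign-flip permutation test, p = 0.25, the smallest possible).

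Set against protein-coding genes with a single TSS, tRNA genes ranked differently in strong and in weak peaks. Among the 4990 strongest peaks of each replicate, 18 tRNA genes (6.21%), 24 (8.28%) and 8 (2.76%) had one within 500 bp in replicates 1, 2 and 3, against 3.63%, 3.51% and 3.59% of positions. Single-TSS protein-coding genes had one in 11.0%, 9.30% and 7.57%, above the tRNA genes in each replicate, and the tRNA minus coding difference was -3.54 ± 2.18 points (SD, n = 3; exact sign-flip permutation test, p = 0.25). In the relaxed lists the order turned: single-TSS genes reached 39.1%, 33.1% and 20.9%, below the tRNA genes in each replicate, with a mean difference of 9.0 ± 9.96 points (n = 3; exact sign-flip permutation test, p = 0.25). Against protein-coding genes with any number of TSSs, the difference was -7.64 ± 1.98 points in the strong lists (n = 3; exact sign-flip permutation test, p = 0.25) and 1.09 ± 9.09 points in the relaxed lists (n = 3; the same exact test, p = 1.0). In the relaxed lists these genes reached 47.9%, 41.9% and 26.95%, above the tRNA genes in replicates 1 and 3 and below them in replicate 2. In all, 7 differences were tested over the replicates, and the adjusted p (Benjamini-Hochberg) was 0.438 for the 4 with the smallest possible p. These p-values concern the 3 samples of the series only. With 3 replicates the p is 0.25 whenever the differences share a sign, whatever their size, so it does not measure their spread.

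**Figure D5:**
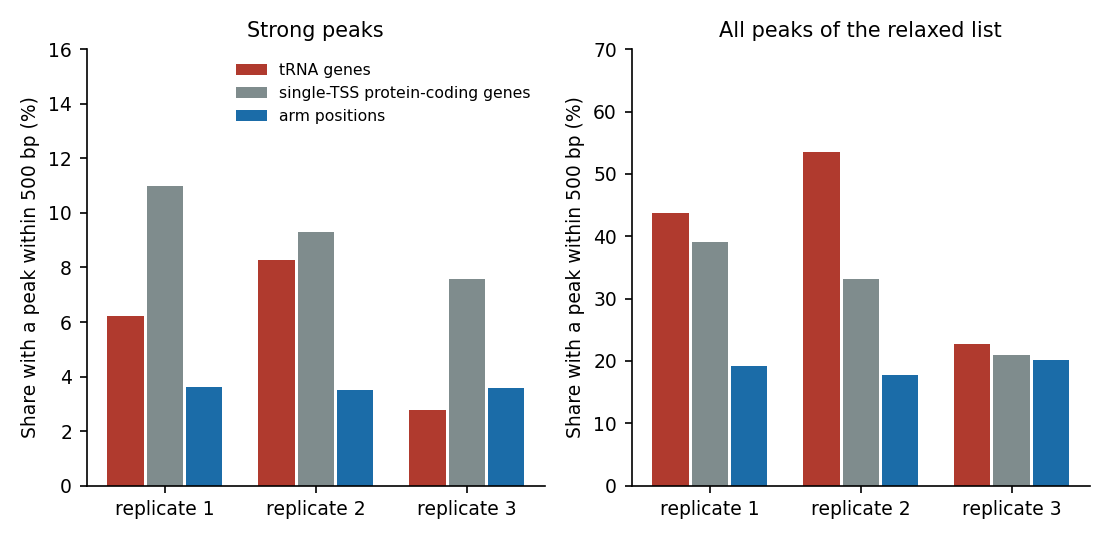
Share (%) of tRNA genes, of protein-coding genes with a single TSS and of arm positions with a peak within 500 bp in each replicate, for the 4990 strongest peaks (left) and all 30000 peaks of the relaxed list (right). tRNA genes are below the coding genes in all replicates on the left and above them in all replicates on the right, where replicates 1 and 2 reach 43.8% and 53.4%.

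The strongest relaxed peaks at tRNA genes stood somewhat above the middle of their lists. For each gene the strongest peak within 500 bp was taken, and a peak shared by genes was counted once. Weaker peaks beside the same gene were thus left out. The median percentile in the relaxed list was 58.9 in replicate 1 (98 peaks), 59.7 in replicate 2 (113 peaks) and 61.7 in replicate 3 (55 peaks). Of these peaks, 15, 18 and 7 were among the strong ones. This choice can raise the percentile, so it does not describe all peaks near tRNA genes. In replicates 1 and 2 the peaks of the relaxed lists, all counted, were dense inside and right beside the genes too, where no reproducible summit or few lay. In replicate 2 their density was 947 per Mb from 1 to 100 bp and 545 per Mb inside tRNA genes, against 222 per Mb beyond 5000 bp. In replicate 1 it was 483 and 409 per Mb, and in replicate 3 it was 179 and 227 per Mb, close to or below its value of 223 per Mb beyond 5000 bp. Over the 3 replicates the density inside tRNA genes was 394 ± 159 per Mb (SD, n = 3).

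Weak peaks were frequent at tRNA genes both near to and away from coding promoters. Among the 210 tRNA genes without a protein-coding TSS within 1000 bp, 39.5%, 52.4% and 26.7% had a relaxed peak, against 15.2%, 14.5% and 19.6% of matching positions. Among the 80 near a TSS the shares were 55.0%, 56.2% and 12.5%, against 34.3%, 29.96% and 22.7% of positions. Replicate 3 was below its background in the latter group and above it in the former. The near and away groups differed by 1.73 ± 14.9 points (n = 3; exact sign-flip permutation test, p = 0.75).

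Genes of the large clusters had weak peaks about as often as all tRNA genes or more often in replicates 1 and 2, and less often in replicate 3. Of their 72 genes, 45.8%, 61.1% and 13.9% had a relaxed peak within 500 bp in replicates 1, 2 and 3. The shares were 43.8%, 53.4% and 22.8% for all tRNA genes and 19.2%, 17.7% and 20.2% for arm positions. The 72 genes come from 10 clusters, and neighbours can share a peak. For single genes the shares were 42.1%, 48.7% and 35.5%. Genes with an identical copy had 42.0%, 51.7% and 20.6%, and genes of unique sequence had 51.9%, 61.5% and 32.7%. In replicate 3 the single genes thus had the highest of the cluster shares, and in replicates 1 and 2 the large clusters did.

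Relaxed peaks were present at 46 tRNA genes in all 3 replicates, at 73 in exactly 2, at 64 in exactly 1 and at 107 in 0. The first group is 15.9% of tRNA genes, against 8.14% of arm positions, 11.6% of single-TSS and 17.8% of all protein-coding genes, and the second is 25.2%, against 8.18%, 18.7% and 21.9%. The first group holds 18 of the 21 bound genes, which were called from these same replicates. Proline and leucine had 7 genes each in the first group, of 17 and 22, arginine 5 of 26, and alanine and cysteine 4 each, of 17 and 7. Aspartate had 0 of 14, isoleucine 0 of 11, glycine 0 of 20 and tryptophan 0 of 8. Cysteine, with 0 bound genes, had a weak peak at 5 of its 7 genes in each replicate. Neighbouring genes can share a peak, so these are not separate observations.

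Among the 269 unbound genes, 28 had a relaxed peak in all 3 replicates. The same held for 8.14% of arm positions and 11.6% of single-TSS protein-coding genes, so the unbound genes alone stood out little. The highest mean among the 28 belonged to tRNA:Leu-CAG-1-1, with relative signals of 0.53, 0.50 and 0.46. Next were tRNA:Thr-AGT-1-7, in an intron of bnl, which encodes a fibroblast growth factor, with 0.61, 0.43 and 0.40, and tRNA:Ser-GCT-2-2 with 0.43, 0.54 and 0.31. The neighbours tRNA:Tyr-GTA-1-4 and tRNA:Tyr-GTA-1-5 shared peaks of 0.49, 0.49 and 0.28. The nearest reproducible summits of these 5 genes were 4379 to 17209 bp away, and 0 of the 5 had a strong peak in any replicate.

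GAAAG was present at most summits near tRNA genes, and GTGAAAG and the PRDI-BF1 consensus at few. Each of the 3 shares was above that of all sites. Motifs were searched on both strands within 100 bp of the summit, so a GAAAG inside GTGAAAG counts for both motifs. The shorter one was present at 14 of the 17 sites (82.4%), against 55.4% of all 4990 sites, and within 50 bp at 10 of 17 (58.8%), against 38.4%. GTGAAAG was present at 3 of 17 (17.6%), against 8.50% of all sites, and the PRDI-BF1 consensus at 2 of 17, against 3.69%. With 17 sites these shares are descriptions and no more.

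The match of the core to the summit was closest at tRNA:Lys-TTT-1-1. GTGAAAG lay there on the summit itself, at chr2L:8291008-8291014 on the plus strand, and runs into a second GAAAG, as the sequence printed for this site shows. At the site between tRNA:Ser-CGA-1-3 and tRNA:Arg-TCG-1-1 it lay 16 bp from the summit on the minus strand, inside a match to the full consensus at chrX:14103488-14103498. This was one of the weaker sites. The other site with a full consensus match, 36 bp from its summit, was that of the Ala-CGC pair. That match holds GAAAG but not GTGAAAG, and the site had a mean relative signal of 1.13, above 13 of the 17 sites. GTGAAAG was also present 58 bp from the summit between tRNA:Arg-TCT-1-1 and tRNA:Met-CAT-1-1. At the Tyr-GTA-1-8 site, the strongest, the one GAAAG lay 40 bp from the summit, and at the Pro-AGG-1-7 site it lay 82 bp away, outside the stretch printed.

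At the tRNA genes themselves, GAAAG was about as frequent among the bound ones as among all. GAAAG was present in 22 of 290 tRNA genes and GTGAAAG in 7. With 100 bp added on each side of the gene, 9 of 21 bound genes (42.9%) and 122 of all 290 (42.1%) had GAAAG. The B box core was within 100 bp of the summit at 2 of the 17 sites (11.8%), against 5.49% of all sites.

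Other RNAs made by RNA polymerase III were looked at in the same way. Of 104 such genes, 96 of them for 5S ribosomal RNA, 1 was bound. This was RNaseMRP:RNA, the RNA of an enzyme that cuts ribosomal RNA precursors, whose summit lay inside the gene, 1644 bp from the nearest coding TSS. Its relative signal was 1.28, 1.78 and 0.80. Of the genes for 7SL RNA, the RNA of the signal recognition particle, 7SLRNA:CR42652 was 697 bp from the weak site of tRNA:Lys-TTT-2-1 and 7SLRNA:CR32864 was 3066 bp from it. The 3 genes for U6 small nuclear RNA, those for U6atac and RNase P RNA were 3863 bp or more from a summit.

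Genes for the proteins of the pathway were bound about as often as other protein-coding genes. Of 19 genes for RNA polymerase III and its factors, 3 had a summit within 500 bp of a TSS (15.8%, against 15.3% of all protein-coding genes). These were Bdp1 and Brf, which encode subunits of TFIIIB, with relative signals of 1.84, 1.91 and 3.45, and of 2.58, 1.60 and 2.80, and Polr3E, a polymerase subunit gene, with 1.94, 1.79 and 2.05. All 3 summits were nearer to the TSS of another gene, CG6565, sds22 and CG10584 in that order. Maf1, the repressor of RNA polymerase III, and Trf, which takes the place of the TATA-binding protein in the TFIIIB of the fly, had no summit within 500 bp.

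Of 35 aminoacyl-tRNA synthetase genes, which charge tRNAs with amino acids, 7 were bound (20%). The strongest site, at AlaRS-m, had 5.65, 6.73 and 3.95, but its summit was nearer to the TSS of Fitm. GluProRS had 2.28, 3.71 and 0.95, a wide spread with replicate 3 lowest. IleRS had 1.25, 1.18 and 1.75, AlaRS 1.32, 1.47 and 0.63, and GlyRS 0.56, 0.79 and 0.68, each with its own TSS the nearest. The sites of AspRS, at 0.98, 0.76 and 1.68, and of LeuRS-m, at 1.06, 1.11 and 0.88, were nearer to Nmda1 and Dhc64C.

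Of 23 tRNA processing genes, 5 were bound (21.7%), and the unbound ones include Pop2, which was listed by its name and encodes a messenger RNA deadenylase. Trmt6 and Trmt61, which encode subunits of a tRNA adenine methyltransferase known from yeast and human, both had a site. That of Trmt6 had 1.73, 1.84 and 2.48. That of Trmt61 had 1.59 and 1.68 in replicates 1 and 2 and no peak in replicate 3, and it was nearer to the TSS of RpL34a, a ribosomal protein gene. Rpp21 and Rpp14a are named after subunits of human RNase P, which trims the 5′ end of tRNAs, and Trm1 after a yeast tRNA guanine methyltransferase. The sites of Rpp21 and Trm1, nearer to Cdc45 and CG5446, had means of 0.791 and 0.640, and Rpp14a had a mean of 0.612 over replicates 1 and 2. The Wilson intervals of the 3 lists ran from 5.52% to 37.6%, from 10.04% to 35.9% and from 9.66% to 41.9%, and each holds the share of all protein-coding genes.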

How the data were processed

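Peak lists on dm6, as deposited, were used. They are 1 relaxed list for each of 3 replicates, which also holds background peaks, and the authors' list filtered by irreproducible discovery rate. The 5573 peaks of the latter were merged where they overlapped, which gave 4990 sites, each with the summit of its strongest peak. Column 7, as deposited by the authors, was taken to hold the signal of a peak. Its scaling, the aligner, the peak caller and the treatment of multiply mapped reads were not given in the sources used here. The lists hold no read counts, so depth is unknown, and lists on dm3 were not used.

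For relative signal, the strongest peak of a replicate that overlapped a site by at least 1 bp was taken, and its signal was set over the median that the same replicate had across sites. Mean and SD are over the replicates with a peak. Replicates were the unit of the exact two-sided sign-flip permutation tests. Intervals are 95% Wilson intervals over genes. Code was tested on simulated data. Python 3.11.15, numpy 2.4.6, pandas 2.3.3 and scipy 1.17.1 were used. Gene coordinates, lists and sequences share genome release 6, and sequences were read from the RefSeq genome of that release.

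Named genes are all bound tRNA genes, those with a summit 500 to 1000 bp away, the 5 unbound ones with the highest mean relaxed signal in all 3 replicates, and the bound members of the pathway lists. The class and the lists were chosen with earlier results of these data known.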

Additional observations from a re-analysis of the deposited data

How the results depend on the processing

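The count of 21 bound tRNA genes, and the 19 nearer to the tRNA gene than to a coding TSS, followed the threshold. They were 12 and 11 with a window of 250 bp, 38 and 31 with 1000 bp, 7 and 6 with the sites above the median signal or those supported by all 3 replicates, and 118 and 112 with the pooled relaxed list. Keeping only sites overlapped by a strong peak in both of 2 given replicates gave 7 to 14 and 6 to 12. Unmerged peaks gave 21 and 19, and distance to the 5′ end 21 and 18. The share of protein-coding genes, 15.3%, was 11.2% with 250 bp, 18.7% with 1000 bp and 15.4% unmerged. It was 8.38% with the sites above the median signal, 7.89% with full support and 38.4% with the pooled relaxed list. With a strong peak required in both of 2 given replicates it was 8.26% to 11.5%.

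The near minus away difference of 2.08 points was -2.56 with 1000 bp and -1.48 with nearness set at 2000 bp. With a strong peak required in both of 2 given replicates it was 0.119 to 3.69. Of 144 clusters, 17 had a bound gene, 10 with 250 bp and 26 with 1000 bp, and joining genes at 1000 or 20000 bp gave 17. The median site signal of 0.776 stayed within the replicate spread in 5 settings, 0.653 to 0.864 without 1 replicate, and stood at the 34.7 percentile of all sites. The mean share of tRNA genes with a strong peak, 5.75%, was 40.0% in the relaxed lists, 0.46% in the strongest 1000 peaks and 11.3% with 1000 bp, and 4.48% to 7.24% without 1 replicate. Why the values moved was not tested beyond what each setting does by construction. The tests took differences within each replicate, and no pairing between conditions was possible because the series has 1 group. What depth limits cannot be stated, since no read counts are in the lists used.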
